A study of Homo sapiens with 8 samples.

Results

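At 1375 places in the genome of G401 cells, 2 or more accessible sites were called as separate peaks before SMARCB1 was restored. After 3 days of its expression, at least 2 of these peaks lay wholly or partly under 1 called peak. These regions were chosen by merging the 4 deposited peak lists wherever peaks shared at least 1 bp and keeping each merged region in which at least 2 day 0 peaks overlapped the same day 3 peak. They make up 0.941% of the 146099 merged regions. The reverse case, 1 day 0 peak lying over at least 2 day 3 peaks, was found in 877 regions and serves as the control, and 94 regions held both. Because the extents of the day 3 and day 0 peaks chose the regions, every value from that contrast is a description and was not tested.

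Accessibility was read by ATAC-seq, a method that inserts sequencing adapters into open DNA with a transposase, on 100000 cells per replicate. G401 is an established human cell line of renal rhabdoid tumour origin that lacks SMARCB1, and the cells of every group carried a stable doxycycline-inducible SMARCB1. Day 0 cells (labelled SMARCB1 -/-) had no induction, and cells given 1 µg/ml doxycycline for 1, 3 or 7 days are labelled SMARCB1 +/+. There were 2 samples per day, 8 in all, and the labels do not say whether they came from separate cultures. Each day has a single deposited list without values per sample, and hence no comparison between days carries a replicate error or a p-value. The list taken as day 0 names no day and was assigned by elimination, and induction, time in culture and the drug itself cannot be told apart in this design.

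SMARCB1 is a core subunit of SWI/SNF, a family of remodelling complexes that slide and evict nucleosomes with energy from ATP. Loss of SMARCB1 defines most rhabdoid tumours, and the complexes are known above all for keeping enhancers open. Accessible DNA is usually read as short stretches free of nucleosomes, and a broad accessible site can hold several of them with partly protected DNA between. In a peak list, a gap between 2 peaks is a stretch where no peak was called, not a stretch without signal.

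The lists were of similar depth. The genome-wide background, the recovered number of reads per position that served as the measure of depth, was 6.34, 6.04, 6.73 and 6.10 on days 0, 1, 3 and 7. The lists held 80744, 109876, 117606 and 103182 peaks. In each of the 4 lists the smallest gap between neighbouring peaks was 51 bp, and no bridged gap could be shorter. A peak can thus hold shorter dips that no list shows. The deposited coordinates are hg19. Genes and DNA sequences at these positions were not analysed here, since the reference tables used here are of GRCh38.

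Most of the bridged gaps were short. The 1375 regions held 1377 bridging day 3 peaks and 1417 bridged pairs of neighbouring day 0 peaks. In the whole day 0 list, 17.5% of neighbouring pairs up to 1000 bp apart were bridged by a day 3 peak. The gap had a median of 125 bp, quartiles of 75 and 214 bp, and a range of 51 to 1019 bp. Gaps of 51 to 60 bp made up 13.1% of the pairs, and gaps of at least 200 bp 29.9% (423 pairs). The distance between the 2 day 0 summits was far longer than the gap, with a median of 694 bp and quartiles of 496 and 925 bp, and the shortest was 208 bp. Bridging day 3 peaks were 1253 bp wide at the median (quartiles 929 and 1634 bp), while the day 0 peaks under them were 435 bp wide (quartiles 294 and 713 bp). The day 3 peak reached past the outer edges of the day 0 peaks by a net median of 13 bp, and its span exceeded that of the day 0 peaks in 53.9% of cases (51.2 to 56.5).

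A day 3 peak covered exactly 2 day 0 peaks in 1338 cases, 3 in 38 and 4 in 1. In all, 2792 day 0 peaks lay under a bridging day 3 peak, 3.46% of that list. Percentages in this text with a range behind them have exact Clopper-Pearson 95% intervals, which treat pairs or regions as independent draws and hold neither the spread between replicates nor the error of the reads. Ratios of summits have exact conditional binomial 95% intervals that cover counting error only. They do not allow for each summit being the highest of its region.

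The gap of 1019 bp, the longest bridged, lay at chromosome 12, 31925683 to 31927186. Its day 0 peaks were 210 and 243 bp wide with 24 and 26 reads at the summit. On day 1 the region held peaks of 856 and 429 bp with 70 and 52 reads, on day 3 a single peak of 1374 bp with 90 reads, and on day 7 peaks of 904 and 387 bp with 65 and 32 reads. The day 1 and day 7 peaks covered most of the day 0 gap and left a shorter stretch within it uncovered, and the day 3 summit at 31926436 lay within the day 0 gap. Scaled by the genome background, the highest summit was 2.83 times that of day 0 on day 1 (1.78 to 4.62), 3.26 times on day 3 (2.09 to 5.26) and 2.60 times on day 7 (1.63 to 4.27).

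The other 4 regions with the longest gaps had smaller ratios. At chromosome 1, 39642841 to 39645454, a gap of 936 bp lay between a day 0 peak of 227 bp with 67 reads and one of 1406 bp with 132 reads. Its day 3 peak was 2559 bp wide with 157 reads, 1.12 times the day 0 summit after scaling (0.884 to 1.42). Days 1 and 7 again held separate peaks there. Chromosome 8, 38307340 to 38309206, had a gap of 882 bp and a ratio of 1.37 (0.969 to 1.96), and chromosome 20, 18036760 to 18038757, a gap of 730 bp and a ratio of 0.912 (0.627 to 1.33). On chromosome 20 a second day 3 peak of 303 bp with 47 reads lay over the right day 0 peak. The bridging peak there ended at 18038172, not far inside that day 0 peak, which began at 18038105. At chromosome 1, 223893864 to 223895797, the gap of 837 bp was bridged on days 3 and 7, and the day 3 ratio was 1.22 (0.927 to 1.61). The deposited fold, which sets a summit against its local background, was only 2.53 there on day 3 and 1.86 on day 0. At these 4 regions the interval of the day 3 ratio included 1.

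**Figure D1:**
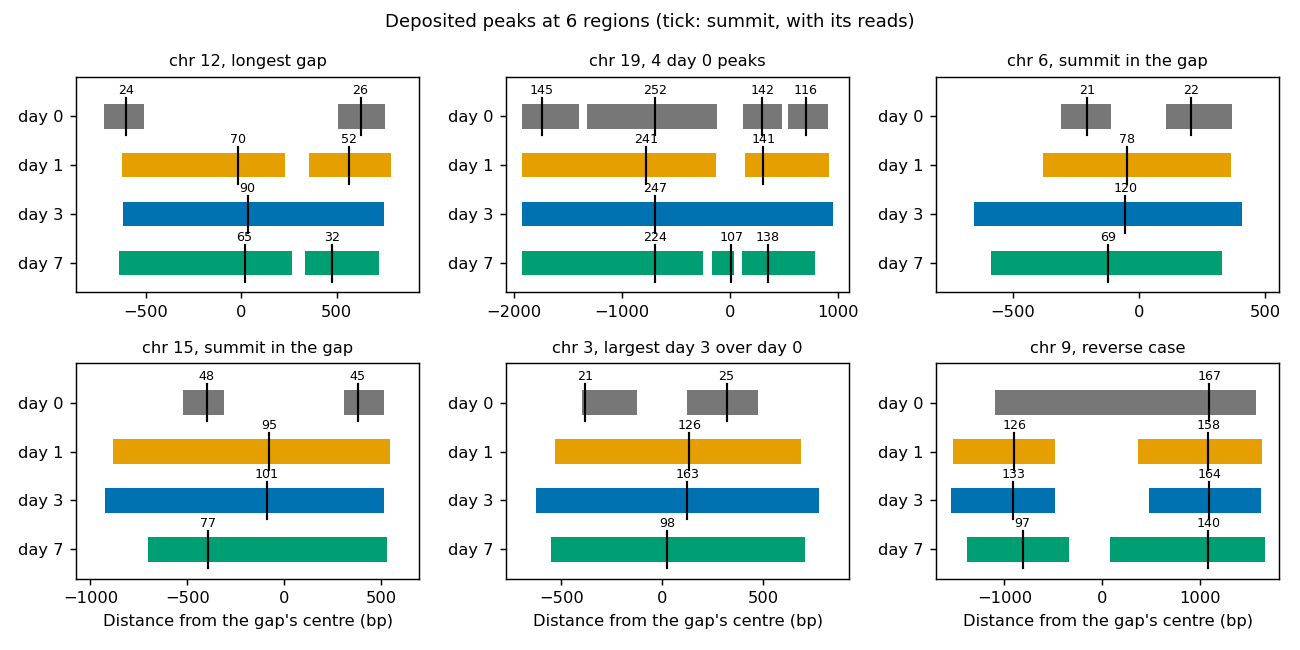
Deposited peaks on days 0, 1, 3 and 7 (rows) at 5 bridged regions and 1 reverse case, against the distance in bp from the centre of the gap; bars span peaks, and ticks mark summits with their reads. At chromosomes 6, 15 and 3 the day 0 peaks lie under a single peak on all 3 induced days, at chromosomes 12 and 19 on day 3 alone, and at chromosome 9 the single day 0 peak of 167 reads is set against separate peaks on days 1, 3 and 7.

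The day 3 peak over 4 day 0 peaks lay at chromosome 19, 6736478 to 6739356. The day 0 peaks held 145, 252, 142 and 116 reads and were parted by gaps of 79, 239 and 54 bp. The highest summits on days 0, 1, 3 and 7 held 252, 241, 247 and 224 reads. This tall site was bridged at a day 3 ratio of 0.924 (0.772 to 1.11), and the interval included 1. Day 1 had 2 peaks there, day 3 had 1 and day 7 had 3.

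Of the 38 day 3 peaks over 3 day 0 peaks, the 4 with the longest bridged gap are described. At chromosome 6, 157041190 to 157042802, the day 0 summits held 34, 31 and 32 reads, and single peaks held 73, 77 and 56 reads on days 1, 3 and 7. The day 3 ratio there was 2.14 (1.41 to 3.30), although the day 3 peak overlapped the leftmost day 0 peak by its last base only. Chromosome 7, 93973919 to 93976134, had day 0 summits of 35, 60 and 32 reads under a peak of 108 reads on day 1 and of 95 reads on day 3, and again 3 peaks on day 7. The day 3 ratio was 1.49 (1.07 to 2.1) there and 1.62 (1.21 to 2.17) at chromosome 1, 54149814 to 54151861. At that chromosome 1 region a separate day 3 peak with 83 reads lay over the leftmost day 0 peak. The bridging peak began at 54150308 and met only the end of that day 0 peak, at 54150350. The ratio was 0.918 (0.728 to 1.16) at chromosome 17, 75282694 to 75285253, where the bridged gap of 400 bp was filled on day 3 and mostly open on days 1 and 7.

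The summit of the bridging peak rarely lay in the former gap. It fell within the gap in 35 of the 1417 pairs (2.47%, 1.73 to 3.42), within the taller of the day 0 peaks in 1054 (74.4%, 72 to 76.6) and within the shorter in 248 (17.5%, 15.6 to 19.6). In a further 31 pairs it lay in 1 of 2 equally tall peaks, and in 49 elsewhere. The place was judged pair by pair, so a day 3 peak over more than 2 day 0 peaks enters more than once. For such a peak, elsewhere can mean another day 0 peak under it. The median distance from the day 3 summit to the nearer day 0 summit of the pair was 39 bp, and in 54.3% of pairs (51.6 to 56.9) it was at most 50 bp. The share in the gap was about the same for the bridges of other days, at 2.97% of 1450 pairs on day 1 and 2.63% of 1219 on day 7. In the reverse case, the day 0 summit lay between the 2 day 3 peaks in 2.91% of 894 pairs (1.91 to 4.23).

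The tallest day 3 summits that lay between day 0 peaks included regions with large and with small differences in height. At chromosome 6, 15148269 to 15149333, the highest summits on days 0, 1, 3 and 7 held 22, 78, 120 and 69 reads, and the day 0 peaks of 200 and 262 bp were parted by 219 bp. A single peak spanned them on each induced day, and the day 3 summit was 5.14 times that of day 0 (3.25 to 8.52). Chromosome 15, 40577110 to 40578584, had 48, 95, 101 and 77 reads on the 4 days across a gap of 618 bp, a day 3 ratio of 1.98 (1.39 to 2.86), and was bridged on every induced day. At chromosome 11, 8861004 to 8862347, the 4 days had 55, 84, 105 and 63 reads, and the gap of 454 bp was bridged on days 1 and 3. Day 7 held 2 separate peaks. The left one ended at 8861891 and so covered nearly all of the former gap, which ran up to 8861901. The day 3 ratio was 1.80 (1.29 to 2.54). The remaining regions of this kind, chromosome 2, 70339271 to 70340052, and chromosome 11, 68109263 to 68110687, had gaps of only 62 and 67 bp and ratios of 1.16 (0.889 to 1.51) and 1.2 (0.875 to 1.66).

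**Figure D2:**
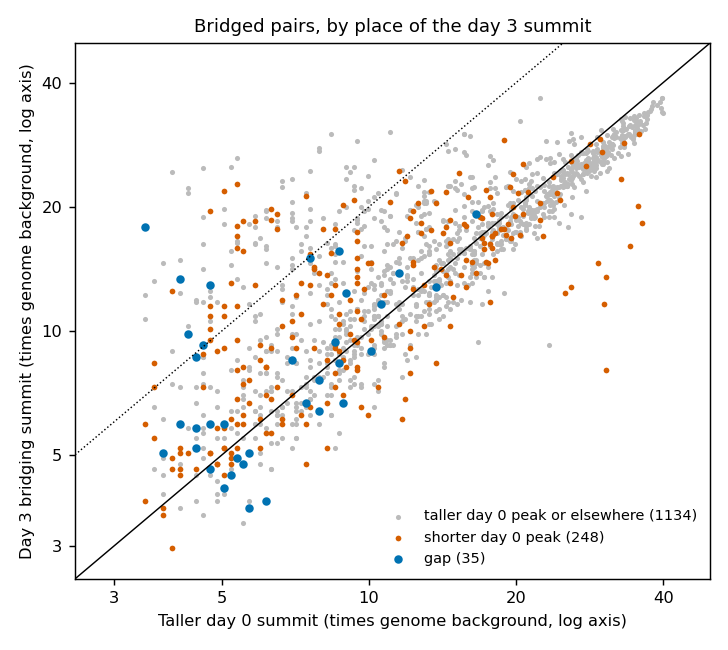
Day 3 bridging summit (vertical) against the taller of the 2 day 0 summits (horizontal) for the 1417 bridged pairs, both in multiples of the genome background on log axes; points are coloured by where the day 3 summit lies, the solid line marks equal height and the dotted line a 2-fold higher day 3 summit. In 705 pairs the day 3 summit is no higher than the taller day 0 summit, and the 130 pairs on or above the dotted line start from low day 0 summits.

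Scaled by the genome background, the bridging peak was about as often lower as higher than the taller peak it covered. In 705 of the 1417 pairs (49.8%, 47.1 to 52.4) the scaled day 3 summit was no higher than the taller day 0 summit, and the median log2 ratio was 0.00 with quartiles of -0.16 and 0.39. Over whole regions, the highest day 3 summit was above that of day 0 in 49.6% of members and in 37.8% of all regions with a peak on every day. By the deposited fold, relative to local background, the members' median log2 ratio was 0.089, with quartiles of -0.034 and 0.28, against a median of 0.020 over all such regions. The 130 pairs with a day 3 summit at least 2-fold higher were split off by a ratio whose lower term is the day 0 summit, so a low day 0 summit is built into them. Their taller day 0 summits held a median of 37 reads, against 88 in the other 1287 pairs, and their day 3 summits 120 reads, against 103. Their gaps were longer, with a median of 179 bp, against 121 bp. They were bridged on both other induced days in 81.5% of cases (73.8 to 87.8), against 45.3% (42.6 to 48.1), and these shares rest on the same day 0 list.

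The largest ratios of the highest day 3 summit to the highest day 0 summit were found at weak day 0 sites bridged on all 3 induced days. Chromosome 3, 11506872 to 11508276, had 25, 126, 163 and 98 reads on days 0, 1, 3 and 7, and its day 3 summit was 6.15 times that of day 0 (4.02 to 9.78). Chromosome 14, 69984869 to 69986961, had 29, 126, 167 and 110 reads and a ratio of 5.43 (3.65 to 8.36). Chromosome 9, 98122894 to 98124027, had 27, 122, 149 and 95 reads and a ratio of 5.20 (3.44 to 8.16), and chromosome 10, 50594172 to 50595539, had 27, 97, 145 and 99 reads and a ratio of 5.06 (3.34 to 7.95). On chromosome 10 the summits of days 1, 3 and 7 lay outside both day 0 peaks. They were at 50595143, 50595155 and 50595153, beyond the end of the right day 0 peak at 50595017. The region on chromosome 6 at 15148269, described above, was the remaining one of the highest 5. They are the extremes of 1375 regions by this ratio, so their intervals do not allow for that choice. By the deposited fold, which divides by local background, day 1 stood above day 3 at 3 of the 5. The fold on days 0, 1, 3 and 7 was 3.21, 6.92, 6.24 and 6.03 at the chromosome 3 region, 3.58, 7.19, 6.65 and 5.99 at that on chromosome 9, and 3.17, 7.05, 6.87 and 5.45 at that on chromosome 10.

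At the 3 regions with the smallest ratios, the bridging day 3 peak lay astride the gap and did not reach the outer edge of either day 0 peak. At chromosome 17, 67712847 to 67713737, the day 0 peaks of 277 and 554 bp held 63 and 75 reads, while the bridging day 3 peak was 230 bp wide with 46 reads. A second day 3 peak of 286 bp, over the right day 0 peak alone, held the highest day 3 summit with 47 reads, 0.591 times that of day 0 (0.401 to 0.862). Day 1 had no peak there. Chromosome 5, 139858260 to 139858881, was bridged by a day 3 peak of 234 bp with 23 reads and had no day 7 peak, with a ratio of 0.620 (0.350 to 1.08). Chromosome X, 19531274 to 19532330, had 54, 44, 35 and 30 reads on the 4 days and a ratio of 0.611 (0.388 to 0.953). At these 3 places the bridge stood beside a lower summit, although on chromosome 5 the interval of the ratio included 1.

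Over whole regions, the members had higher summits than regions at large, as did the reverse-case regions. Both groups were chosen to hold at least 2 peaks on 1 of the days. Of regions with a peak on every day, 96.7% held exactly 1 on day 0. A highest summit taken over more peaks is in part higher by its making. The median highest summit of the members was 12.9, 17.0, 15.9 and 14.3 times the genome background on days 0, 1, 3 and 7. Across the 60786 merged regions with a peak on every day it was 11.0, 12.7, 11.6 and 11.3. In the reverse-case regions it was 16.9, 17.5, 15 and 16.2, above the members on days 0, 1 and 7. The median log2 ratio to day 0 in members was 0.15 on day 1 (SD over regions 0.45), -0.00 on day 3 (SD 0.52) and 0.01 on day 7 (SD 0.40), set against 0.08, -0.08 and -0.04 over all regions with a peak on every day. Summits at least 2-fold above day 0 were counted in 123 of 1367 members on day 1 (9.0%, against a background of 3.48% of all regions with a peak on both days). On day 7 they were counted in 53 of 1355 (3.91%, background 2.1%). On day 3, whose contrast chose the members, the count was 122 of 1375 (8.87%, background 3.66%), and nothing is read from it. The day 1 and day 7 ratios divide by the day 0 list that also chose the members, and the part of its error in those counts was not tested. Summits at least 2-fold lower numbered 0 on day 1 (interval up to 0.269%), 0 on day 3 (up to 0.268%) and 1 on day 7, with backgrounds of 0.0146%, 0.0686% and 0.0585%. These counts leave out regions that had no peak on the later day. Over all regions with a peak on every day, the lowest value of the highest summit was 2.81, 2.82 and 2.95 on days 1, 3 and 7. The weakest day 0 sites could therefore not be counted as 2-fold lower.

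**Figure D3:**
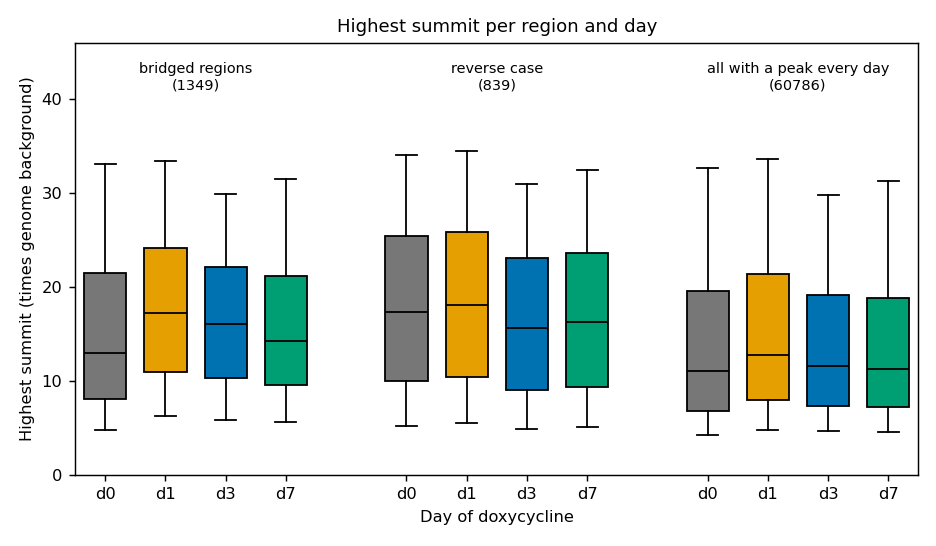
Highest summit per region in multiples of the genome background on days 0, 1, 3 and 7, for the 1349 bridged regions, 839 reverse-case regions and 60786 merged regions in all with a peak on every day; boxes span the quartiles with the median as a line, whiskers run from the 5th to the 95th percentile of regions, and regions of the first 2 groups are also in the last. Day 1 has the highest median in each of the 3 groups, and the day 0 median is the lowest in bridged regions and over all regions, but not in the reverse case.

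The members' margin over all regions was larger the weaker the day 0 site. Among regions whose day 0 summit was 5 to 10 times the genome background, the median log2 ratio to day 0 was 0.39 on day 1 and 0.25 on day 7 in 406 members with a peak on every day, against 0.15 and 0.02 in all 21023 regions of that height. Under 5 times the background, it was 0.74 and 0.55 in 92 members, against 0.36 and 0.31 in 6309 regions. From 10 to 20 times the background, it was 0.18 and -0.01 in 464 members, against 0.07 and -0.08 in 18638 regions. For summits of at least 20 times, the values were 0.04 and -0.07 in 387 members and 0.03 and -0.07 in 14816 regions, hence about the same. On day 1, in members and in all regions alike, the median ratio was higher the lower the day 0 summit. The classes are cut by the day 0 summit, which is also the lower term of each ratio. A higher ratio in the low classes is thus partly built in. The members were chosen from the same day 0 list, and the part of its counting error in their margin was not tested.

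The length covered by peaks was also compared. A member holds at least 2 day 0 peaks and a reverse-case region at least 2 day 3 peaks, so that length and its difference between days 3 and 0 follow in part from how the regions were chosen. Peaks within the members covered a median of 1038, 1263, 1304 and 1193 bp on days 0, 1, 3 and 7, against 1257, 1242, 1200 and 1207 bp in reverse-case regions. The median difference from day 0 within a region was 148 bp on day 1, 166 bp on day 3 and 74 bp on day 7, compared with 32, 25 and 7 bp over all regions with a peak on every day. In reverse-case regions the difference from day 0 was -35, -70 and -79.5 bp on those days. Of the 1349 members with a peak on every day, 71.3% held exactly 1 peak on day 1 and 67.8% on day 7. Among the 839 reverse-case regions with a peak on every day, the shares were 62.8% on day 1 and 61.5% on day 7. Both groups lay below the 60786 regions with a peak on every day, where the shares were 97.1% and 96.5%.

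The longer the gap between neighbouring day 0 peaks, the smaller was the share bridged. Of the 8086 neighbouring day 0 pairs up to 1000 bp apart, 17.9% were bridged by a day 1 peak, 17.5% by a day 3 peak and 15.1% by a day 7 peak. With gaps of 51 to 99 bp the day 3 share was 56.4% (53.3 to 59.4), with 100 to 199 bp 37.0% (34.2 to 39.9), with 200 to 299 bp 22.1% (19.6 to 24.6), with 300 to 499 bp 8.27% (7.00 to 9.70) and with 500 to 1000 bp 1.26% (0.904 to 1.72). Day 1 and day 7 shares had the same order of gap classes. The height of the day 0 peaks made less difference at short gaps than at longer ones. With gaps of 51 to 99 bp, 55.7% of pairs were bridged on day 3 where the shorter day 0 summit was under 5 times the genome background and 55.9% where it was at least 10 times. With gaps of 200 to 299 bp the shares were 33.0% and 16.6%.

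As a share of the pairs of its own list, the reverse case was less common at each gap length. Of neighbouring day 3 pairs with gaps of 51 to 99 bp, 26.8% (24.7 to 29.0) were bridged by a day 0 peak, and the share was 15.7% at 100 to 199 bp, 6.07% at 200 to 299 bp, 1.72% at 300 to 499 bp and 0.228% at 500 to 1000 bp. In absolute numbers, 1375 regions were bridged by day 3 and 877 showed the reverse, a ratio of 1.57. The ratio was 1.68 for day 1 against day 0 (1404 and 836 regions) and 1.16 for day 7 against day 0 (1186 and 1026 regions). Reverse gaps were shorter, with a median of 99 bp and a maximum of 954 bp, and the day 0 peaks over them were 1178 bp wide at the median. The day 3 list is longer than the day 0 list, and its background is 1.06 times as deep. Its pairs can include peaks without a day 0 counterpart, which no day 0 peak can bridge, so the shares of the 2 directions have unlike bases. The part of this in the difference was not tested. When each list was limited to its 80744 peaks with the highest -log10 p, the counts were 1277 bridged and 339 reverse regions. The day 0 list has that length and lost no peak, while the day 3 list lost its weakest. A lower reverse count is thus built into that cut. At gaps of 51 to 99 bp, 49.8% of day 0 pairs and 34.0% of day 3 pairs were then bridged.

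**Figure D4:**
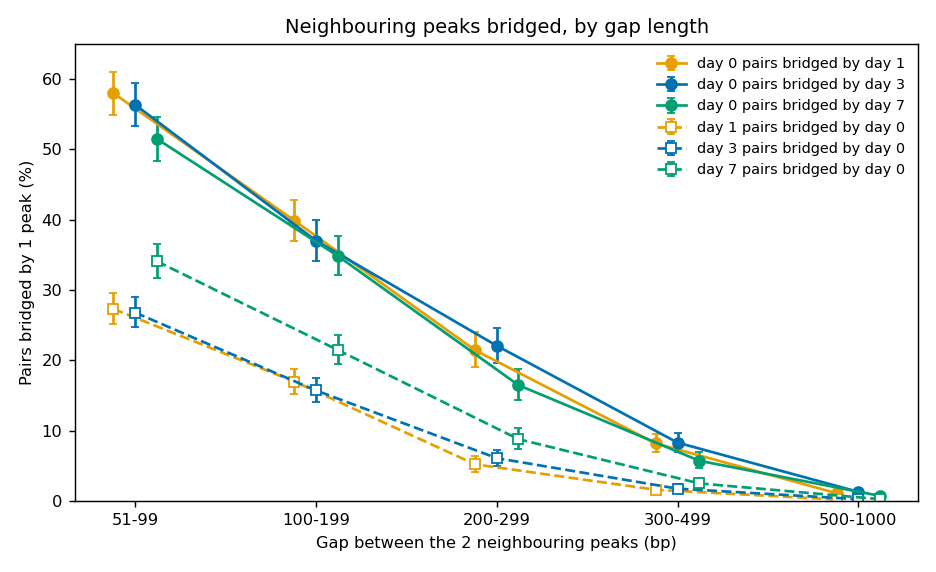
Percentage of neighbouring peak pairs bridged by 1 peak of the other list, by gap class in bp, with exact 95% intervals; filled points are day 0 pairs bridged by days 1, 3 and 7, and open squares on dashed lines are pairs of those days bridged by day 0. At gaps of 51 to 99 bp, 56.4% of day 0 pairs were bridged by day 3 and 26.8% of day 3 pairs by day 0, and both shares were lower in each longer class.

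The longest reverse gaps showed what that case looks like. At chromosome 9, 130328875 to 130332091, day 3 peaks with 133 and 164 reads lay 954 bp apart under a day 0 peak of 2672 bp with 167 reads. Days 1 and 7 also held 2 peaks there. Chromosome 18, 23899496 to 23901272, had day 3 peaks of 37 and 54 reads with a gap of 914 bp, under a day 0 peak of 93 reads, and its highest day 3 summit was 0.548 times that of day 0 (0.384 to 0.774). Chromosome 2, 178555777 to 178558079, had a reverse gap of 737 bp and a day 3 ratio of 0.765 (0.569 to 1.03), chromosome 7, 99754413 to 99756684, a gap of 684 bp and a ratio of 0.924 (0.728 to 1.17), and chromosome 8, 132853509 to 132854794, a gap of 613 bp and a ratio of 0.943 (0.650 to 1.37).

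Days 1 and 7 were not used to choose the pairs, apart from sharing the same day 0 list. Of the 1375 members, 954 (69.4%, 66.9 to 71.8) also held a bridge on day 1 and 839 (61.0%, 58.4 to 63.6) on day 7. Counted as pairs, the shares were 68.5% and 59.9%. Of all neighbouring day 0 pairs up to 1000 bp apart, these included, 17.9% were bridged on day 1 and 15.1% on day 7. Those not bridged on day 3 had longer gaps, with a median of 473 bp against 125 bp, and shares at equal gap length follow below. Pair by pair, 689 of the 1417 (48.6%) were bridged on all 3 induced days, 282 (19.9%) on days 1 and 3 only, 160 (11.3%) on days 3 and 7 only and 286 (20.2%) on day 3 alone. Pairs bridged on day 3 alone had the longest gaps of these 4 groups, with a median of 174.5 bp, and pairs bridged on all 3 days the shortest, with 104 bp. Where a pair was not bridged on day 7, both day 0 peaks still had separate counterparts in 365 cases (25.8% of all pairs), only 1 had a counterpart in 181 (12.8%) and neither had in 22.

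At equal gap length, pairs bridged on day 3 were bridged on the other days far more often than pairs that were not. With gaps of 51 to 99 bp, 74.5% (70.8 to 78.0) of the 581 pairs bridged on day 3 were bridged on day 1, against 36.7% (32.2 to 41.3) of the 450 others. With 200 to 299 bp the shares on day 1 were 64.3% (58.0 to 70.4) and 9.28% (7.43 to 11.4), and with 300 to 499 bp 61.6% (52.9 to 69.7) and 3.33% (2.49 to 4.36). On day 7 the shares at 300 to 499 bp were 44.9% (36.5 to 53.6) and 2.16% (1.49 to 3.02). These shares all rest on the same day 0 list, and the part of its counting error at the gap in them was not tested. In the reverse direction, of the 894 day 3 pairs under 1 day 0 peak, 58.7% (55.4 to 62.0) were also bridged on day 1 and 52.1% (48.8 to 55.4) on day 7. Over all day 3 pairs up to 1000 bp apart, not matched for gap length, the shares were 11.4% and 9.46%. Of the 878 day 0 peaks concerned, 30.4% were also split on day 1 and 31.1% on day 7. In the whole day 0 list of 80744 peaks, 837 were split on day 1 and 1030 on day 7.

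Height on days 1 and 7 was set out by the same division. The division and the ratios rest on the same day 0 list, whose error enters both, and its part in the differences was not tested. With gaps of 200 to 299 bp, the median log2 ratio of the highest day 1 summit to the taller day 0 summit was 0.23 in 244 pairs bridged on day 3 and 0.05 in 844 pairs not bridged. On day 7 the medians were 0.02 in 242 and -0.07 in 828 such pairs. With gaps of 300 to 499 bp they were 0.35 and 0.05 on day 1 and 0.08 and -0.07 on day 7. A day 1 summit at least 2-fold higher was present in 18.8% of 138 bridged pairs of that gap class and in 1.40% of 1501 others.

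Bridging was also frequent between induced days, and the direction between days 7 and 3 was opposite to that between days 3 and 0. A day 7 peak bridged day 3 pairs in 1201 regions, while a day 3 peak bridged day 7 pairs in 1962 regions, a ratio of 0.612. As a share of neighbouring pairs up to 1000 bp apart, 9.46% (8.96 to 9.98) of day 3 pairs were bridged by day 7 and 18.3% (17.6 to 19.1) of day 7 pairs by day 3. Between days 7 and 1 the counts were 1199 and 1746 regions, and between days 3 and 1 they were 1641 and 1451. Day 7 thus had fewer bridges than the reverse against both earlier induced days and more than the reverse against day 0. The background of the day 3 list was the deepest of the 4 and that of day 1 the shallowest, and their part in these counts was not tested.

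**Figure D5:**
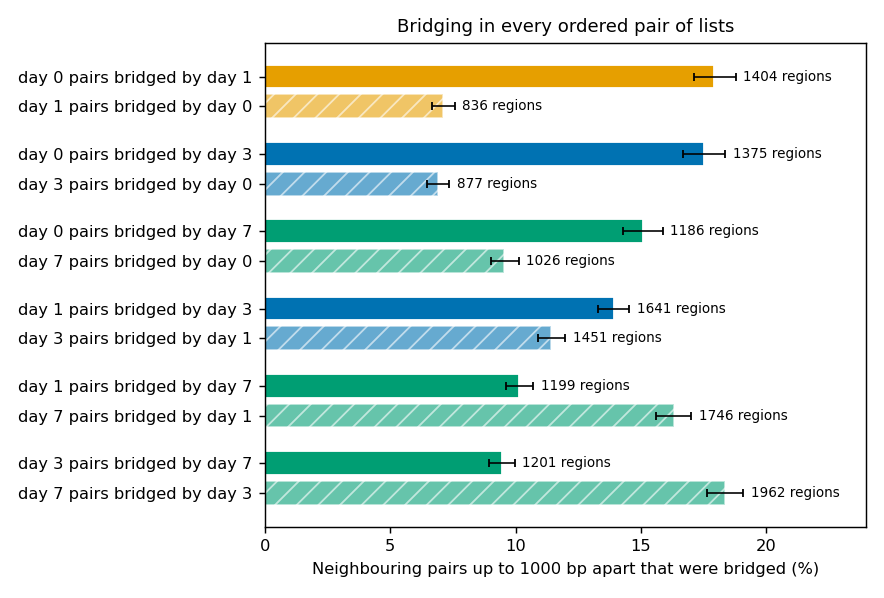
Percentage of neighbouring pairs up to 1000 bp apart in one list that were bridged by a peak of another list, for all 12 ordered pairs of lists, with exact 95% intervals and the number of merged regions beside each bar; solid bars have the later day bridging the earlier, hatched bars the reverse. Later days bridge more than the reverse for days 1, 3 and 7 against day 0 and for day 3 against day 1, and day 7 bridges less than the reverse against days 1 and 3.

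The limits of the rule lay at overlaps of 1 bp. Just inside it, the regions at chromosome 1, 15578338 to 15579279, chromosome 16, 755647 to 757459, and chromosome 22, 45124503 to 45125635, were members through a shared stretch of 1 bp, with day 3 bridging summits of 45, 115 and 72 reads. Just outside, day 3 peaks at chromosome 11, 76289604 to 76290399, chromosome 15, 75591551 to 75592335, and chromosome 3, 99619752 to 99620816, abutted a neighbouring day 0 peak with no shared base and held 58, 51 and 74 reads. In 20 of the 1417 pairs the shorter of the 2 overlaps was 10 bp or less, and its median was 269 bp.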

How the data were processed

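ATAC-seq peaks of G401 cells on days 0, 1, 3 and 7 (2 samples each) were analysed from 1 deposited table that joins 4 lists of narrowPeak layout, 411408 peaks in all. Per the submitters' processing notes, the tools were MACS2 (2.1.1.20160309), Bowtie2 and deepTools, on hg19. The sources used here state neither read filters nor an offset for the transposase, nor whether replicates were pooled. Per peak, the authors deposited a score, the fold (a ratio of summit to local background), their caller's -log10 of the p-value and of the q-value, and the summit position.

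Reads at each summit were recovered from fold and -log10 p, which together fix both the reads and the local background when 1 is added to each in the fold and p comes from a Poisson law. Each peak gave a whole number within 0.000863 in -log10 p, the next best being off by at least 0.0272. Median summits held 57, 51, 52 and 48 reads on days 0, 1, 3 and 7, and the smallest 18, 16, 17 and 18. The commonest background of a list was taken as its genome-wide background. Scaled summits are reads divided by it. Reads that are PCR copies would make the intervals too narrow.

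Overlaps of at least 1 bp were counted, and gaps are the bases between neighbouring peaks of a list. Read recovery and the search for bridges were tested on simulated data. Tests across samples, a replicate block and leaving out replicates had been planned only for values per sample, and the table holds none. The members and lists were chosen with earlier results of these data known. Named regions are the 5 members each with the longest gap, the most day 0 peaks under 1 day 3 peak (ties by the longer gap), the highest day 3 summit within the gap and the largest day 3 to day 0 ratio, the 3 with the smallest ratio, and the 5 reverse regions with the longest gap. Those at the limits of the rule were named after their values were seen. Python 3.11.15, NumPy 2.4.6, pandas 2.3.3, SciPy 1.17.1 and matplotlib 3.10.9 were used.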

Additional observations from a re-analysis of the deposited data

How the results depend on the processing

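Of 70 recomputed values, 39 stayed within 1.5 times the reported count or inside the reported 95% interval, and 31 did not. With a deposited fold of at least 4 in all lists, 59 regions were bridged by day 3, 20 showed the reverse, and 55 and 42 were bridged by days 1 and 7. Of those 59, the day 1 list bridged 66.1% and the day 7 list 54.2%, the median log2 day 3 to day 0 ratio was 0.047 and 0.00% of day 3 summits lay in the gap. At gaps of 51 to 99 bp, 61.1% of day 0 pairs and 12.3% of day 3 pairs were then bridged. With gaps of at least 200 bp only, the counts were 423, 159, 405 and 298, the shares on days 1 and 7 61.5% and 46.3%, the median ratio 0.14 and the share of summits in the gap 3.55%.

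With lists of equal length, the reverse count was 339 and the ratio of bridged to reverse regions 3.77, while 49.8% of day 0 pairs and 34.0% of day 3 pairs at 51 to 99 bp were bridged. That cut left the day 0 list whole and removed peaks from the induced lists only, which lowers the reverse count by its making. Requiring coverage of at least 50% of each bridged peak gave 66.7% and 56.5% of members bridged on days 1 and 7, and 44.3% of day 0 and 18.5% of day 3 pairs at 51 to 99 bp. An overlap of at least 50 bp gave 51.6% and 24.4% of those pairs, and a -log10 q of at least 5 gave 30.1% of day 3 pairs and 1.35% of summits in the gap. The median ratio was 0.089 by the deposited fold and 0.29 against the mean of the bridged day 0 summits. Bridged regions outnumbered the reverse 1.46 to 3.77 times under the alternatives tried. Stricter limits remove whole peaks and do not redraw edges. The cause of these shifts was not tested.

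No paired analysis was possible because the lists hold no value per sample, and for the same reason leaving out a replicate was not run.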

Other observations

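A further 704 merged regions held at least 2 day 0 peaks and were not bridged on day 3. Of these, 141 were bridged on both day 1 and day 7, 309 on day 1 only, 206 on day 7 only and 48 on neither day, where the pieces were joined by peaks that overlapped in a chain.

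Members were spread over all chromosomes. The share of neighbouring day 0 pairs up to 1000 bp apart that a day 3 peak bridged was 22.2% on chromosome X (37 of 167 pairs), 20.1% on chromosome 9 (67 of 334) and 20.0% on chromosome 21 (21 of 105). At the low end it was 13.8% on chromosome 18 (18 of 130), 14.0% on chromosome 15 (42 of 299) and 14.6% on chromosome 19 (80 of 548). Chromosome Y had 3 of 12 pairs. The largest number of members, 154, lay on chromosome 1, and chromosome 19 held 73. The exact 95% interval of each chromosome's share, these included, covered the 17.5% of the whole genome.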
